A study of Caenorhabditis elegans with 2 samples.

Results

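Of the 6651 autosomal peaks that NHR-71 gave in first-stage (L1) larvae of Caenorhabditis elegans, 780 had their summit in a divergent promoter. That is 11.7% of the autosomal peaks (95% Wilson interval 11.0 to 12.5%, counting of peaks only), out of 8540 peaks on all chromosomes. A peak was taken when its summit, the position of highest signal in the peak, lay between 1000 bp upstream and 200 bp downstream of the annotated start of at least 1 protein-coding gene on the plus strand and of at least 1 on the minus strand. The X chromosome, with 1889 peaks, was left out by this rule. Chromatin immunoprecipitation followed by sequencing was made in 1 group with 2 biological replicates and no comparison group. All animals were whole hermaphrodite larvae of strain OP480, which carries unc-119(tm4063) III and the integrated transgene wgIs480, whose product is NHR-71 with a GFP-FLAG tag at its C-terminus. The larvae had been starved after bleaching and were taken 6 h after synchronization; their chromatin was sonicated and precipitated with an anti-GFP antibody. The data thus come from 1 transgenic line and from all tissues of the larva together, and a tagged protein made from a transgene stands in for the endogenous one. The peaks are those that passed the authors' test of irreproducible discovery rate (IDR) between replicates, and signal is the authors' own value per peak, used only to rank and describe peaks.

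In a divergent promoter, 2 neighbouring genes are transcribed away from each other and share the stretch of DNA between their starts. Such gene pairs occur in many animals, and the stretch can hold the core promoters of both genes and regulatory sites that act on either. NHR-71 belongs to the nuclear hormone receptors, transcription factors with a zinc-finger DNA-binding domain that form an unusually large family in C. elegans. A peak between 2 starts cannot be given to either gene from its place alone. Many worm transcripts are also trans-spliced, which replaces their original 5' end, so an annotated start can lie downstream of the place where transcription begins.

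The following windows show what lay under the summits of well-marked pairs; the genes on the minus and then the plus strand name each. Sequences are from the RefSeq copy of WBcel235 (ce11), plus strand, 5' to 3', 100 bp around the summit. Capitals mark, on either strand, the E-box CACGTG, the 5 words of 6 bases given further on as higher in members (ACCGTA and the others listed with it) and the 6 words of 10 bases; other words discussed later stay in lower case, and where marked words overlap their capitals run together. All marked words but the E-box were found by searching the windows of these peaks, so they describe them and are not independent of them. The first window (chrIII:10759202-10759301) is that of the strongest peak and holds none of the marked words. The windows of rpl-20 (chrIV:4750015-4750114) and rpl-15 (chrIV:654872-654971) belong to ribosomal protein genes and carry ACCGTA. The window beside nhr-68 (chrV:11572974-11573073) is a strong one with the E-box, and that of mig-5 and cct-1 (chrII:8185162-8185261) is a strong one with AGACCC, here on the minus strand. The windows of R107.5 and cls-2 (chrIII:9054019-9054118) and of rbc-2 and ndua-8 (chrIII:2528770-2528869) carry GAGACGCAGA and GCGCCTTTAA. The windows of gmps-1 and cap-2 (chrII:10868905-10869004) and of cct-8 and Y55F3AR.2 (chrIV:1094313-1094412) share a stretch of 15 bases.
K01G5.10 and tasp-1: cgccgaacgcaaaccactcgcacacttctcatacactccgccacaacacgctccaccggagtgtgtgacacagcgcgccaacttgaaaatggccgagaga
rpl-20 and Y17G9B.5: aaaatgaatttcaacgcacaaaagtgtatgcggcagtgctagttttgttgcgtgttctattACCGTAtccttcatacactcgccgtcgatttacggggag
rpl-15 and K11H12.8: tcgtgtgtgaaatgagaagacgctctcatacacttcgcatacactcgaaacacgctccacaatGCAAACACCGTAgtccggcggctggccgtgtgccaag
H12C20.7 and nhr-68: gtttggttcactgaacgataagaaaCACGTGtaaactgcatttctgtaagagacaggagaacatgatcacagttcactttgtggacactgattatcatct
mig-5 and cct-1: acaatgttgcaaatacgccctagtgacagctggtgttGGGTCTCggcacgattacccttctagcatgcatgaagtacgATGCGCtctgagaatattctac
R107.5 and cls-2: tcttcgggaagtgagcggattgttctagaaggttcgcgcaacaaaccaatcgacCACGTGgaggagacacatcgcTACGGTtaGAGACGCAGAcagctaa
rbc-2 and ndua-8: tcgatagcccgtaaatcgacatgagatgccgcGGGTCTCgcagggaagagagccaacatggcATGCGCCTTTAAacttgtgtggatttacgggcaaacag
gmps-1 and cap-2: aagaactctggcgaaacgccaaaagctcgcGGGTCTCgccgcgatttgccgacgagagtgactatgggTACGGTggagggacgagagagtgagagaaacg
cct-8 and Y55F3AR.2: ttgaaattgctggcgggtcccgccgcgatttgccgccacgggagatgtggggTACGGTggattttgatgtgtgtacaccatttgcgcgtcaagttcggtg

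The 15 bases shared by the gmps-1 and cct-8 windows, cgccgcgatttgccg, were found in 2 member windows, in 0 windows of peaks in promoters on 1 strand and in 0 windows of peaks outside promoters; the autosomes hold 10 copies.

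Divergent promoters held more peaks per base than the rest of the autosomes. The stretches in windows of both strands cover 1.98 Mb, or 2.39% of the autosomal bases, and held 394.7 peaks per Mb. Windows of genes on 1 strand held 130.5 peaks per Mb over 19.9% of the bases, and bases in no window held 58.1 peaks per Mb. With each replicate list reduced to its strongest 8540 positions, the densities were 406.9 ± 4.29, 133.2 ± 0.172 and 57.5 ± 0.242 peaks per Mb (mean ± SD, n = 2). The replicate lists placed 810 and 798 of their autosomal summits in divergent promoters, a share of 12.04% ± 0.135 (SD, n = 2). The order of the 3 places was thus the same in both replicates, with differences far larger than the spread between them. No test over samples can be made with 1 group, and none of the comparisons of places, distances, lists and words here carries a p-value.

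Peaks in divergent promoters also had the higher signal. Their signal ran from 84.2 to 5790 with a median of 344 (quartiles 185 and 680), against a median of 222 for the 2144 peaks in promoters on 1 strand and of 171 for the 3727 peaks in no window. The ratio of the medians to promoters on 1 strand was 1.57 in replicate 1 and 1.51 in replicate 2 (1.54 ± 0.0405, SD, n = 2), and the ratio to peaks in no window was 1.92 ± 0.0331. Of the 100 strongest autosomal peaks, 27 were in divergent promoters, which held 11.7% of all autosomal peaks. The highest autosomal signal, 6143, was that of a peak in a promoter on 1 strand. The distributions overlapped widely, since the upper quartile of promoters on 1 strand, 425, lay above the median of the divergent ones.

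**Figure D1:**
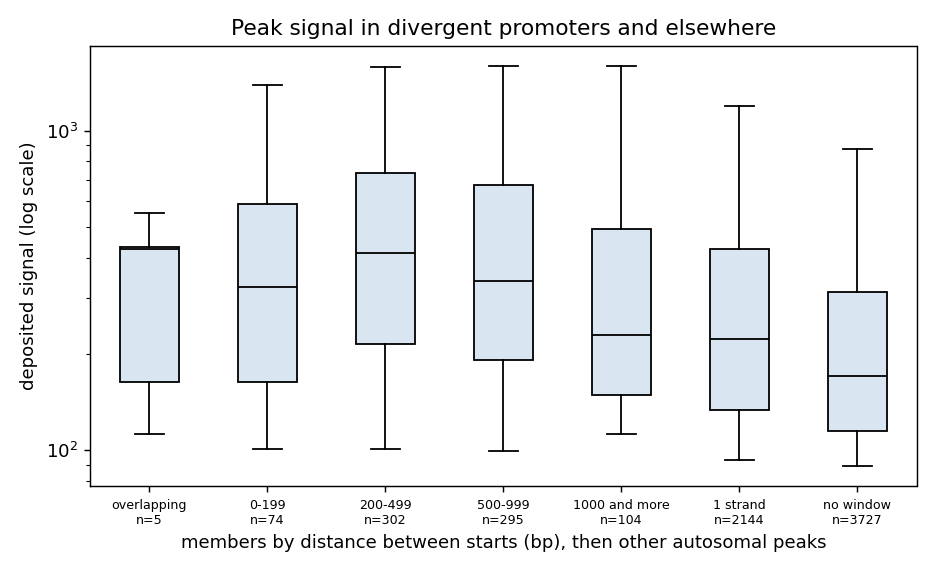
Deposited signal of the 780 peaks in divergent promoters, by the distance between the nearest starts, and of the other autosomal peaks (log axis). The line in each box is the median, the box spans the quartiles and the whiskers run from the 5th to the 95th percentile; "1 strand" is peaks in promoter windows of 1 strand and "no window" is peaks outside them. The median is 412 where the starts are 200 to under 500 bp apart and 171 outside promoter windows.

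The difference in signal from promoters on 1 strand was largest close to a start. With the summit under 100 bp from the nearest start, the median signal was 348 over 288 divergent peaks and 181 over 417 peaks on 1 strand, a ratio of 1.80 ± 0.130 (SD, n = 2) in the replicate lists. The ratio was 1.60 ± 0.0805 from 100 to under 200 bp and 1.26 ± 0.00956 from 200 to under 500 bp. From 500 to 1000 bp, where 30 divergent peaks lay, it was 1.13 ± 0.0883. Among the divergent peaks the median was 363 and 343 in the next 2 classes of distance and 223 in the last. Among peaks on 1 strand it was highest from 200 to under 500 bp, with 283. A summit in a divergent promoter has 2 starts to be near to, so its distance to the nearest is shorter by construction.

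**Figure D2:**
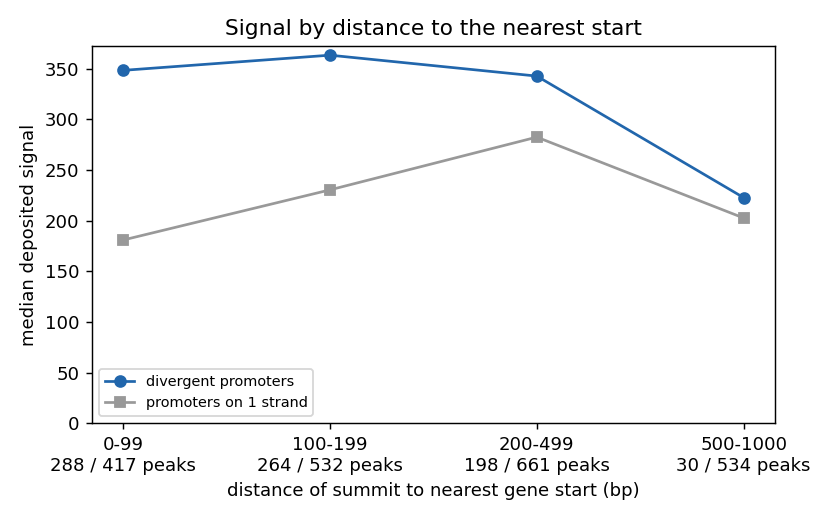
Median deposited signal by distance of the summit to the nearest annotated gene start (bp), for divergent promoters (circles) and promoters on 1 strand (squares), with the number of peaks of each under the axis. The circles lie above the squares in all 4 classes, by a ratio of 1.93 in the first and 1.10 in the last.

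The 780 peaks belonged to 740 distinct pairs of nearest genes, with 1480 genes in all. The summit lay in the windows of 2 genes for 726 peaks, of 3 genes for 53 and of 4 genes for 1. Of all 2382 autosomal head-to-head pairs, neighbours on opposite strands with starts at most 2000 bp apart, 734 (30.8%) had a summit in both windows. In the replicate lists the count was 761 and 750 pairs. By gene, 1643 of the 4764 genes of such pairs had a promoter peak (34.5%, Wilson interval 33.2 to 35.8%), against 1888 of 12478 other autosomal genes (15.1%, 14.5 to 15.8%); a shared summit counts for both genes of its pair.

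Summits mostly stood between the starts, upstream of both genes. The nearest starts were a median of 519 bp apart (quartiles 310.5 and 779.5, range -230 to 1831 bp, negative where the genes overlap at their starts). The summit was a median of 140.5 bp from the nearer start (quartiles 60.75 and 222) and 354 bp from the farther one. Between the starts lay 712 summits (91.3%, Wilson interval 89.1 to 93.1%). Of the 68 others, 5 were in pairs whose genes overlap at their starts. The rule reaches 1000 bp upstream but only 200 bp downstream of a start, so the share between the starts was set in part by the rule. It was 60.8% with starts under 200 bp apart and, by construction, 100% at 1000 bp and more. The share was not set against the share of bases between the starts. The nearer start was on the plus strand for 395 summits and on the minus strand for 383 (50.6% plus, 47.1 to 54.1%), and 2 were equally far from both. In 474 cases the summit was over 100 bp upstream of both starts. By annotation, 705 summits were between genes (median signal 359), 51 in an untranslated exon (244), 14 in an intron (205) and 10 in a coding exon (198).

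**Figure D3:**
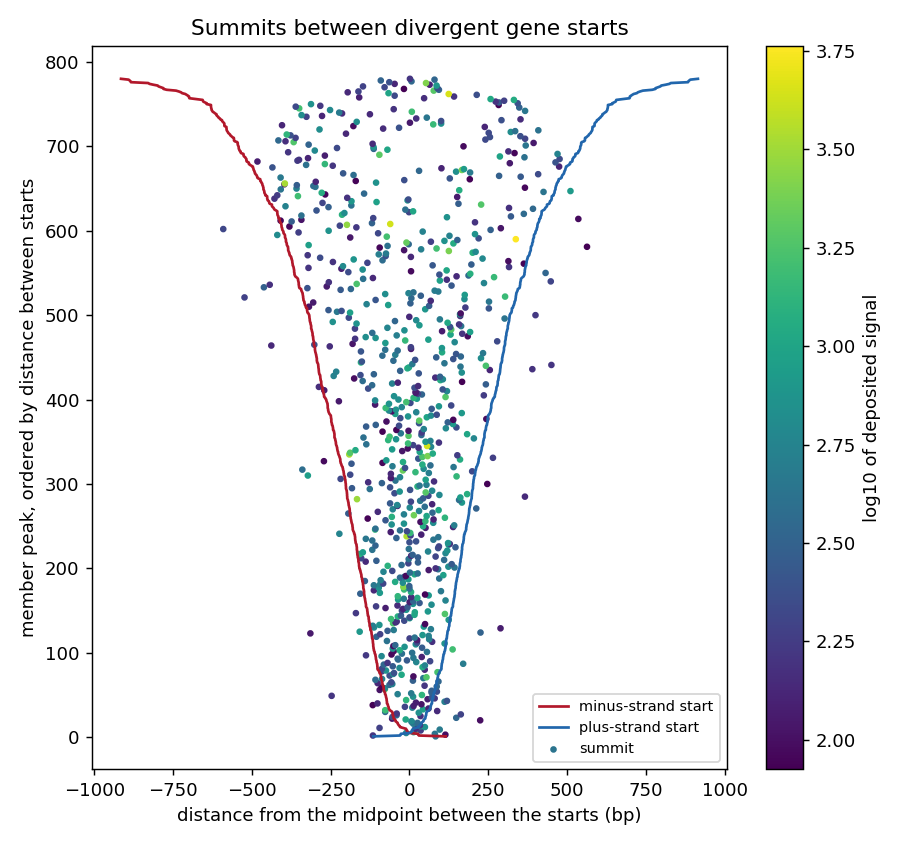
Each point is the summit of 1 of the 780 peaks, placed by its distance in bp from the midpoint between the nearest starts, with peaks ordered by the distance between starts and coloured by log10 signal. The lines are the starts on the minus strand (left) and the plus strand (right); 712 points lie between the lines.

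Pairs with starts 200 to under 500 bp apart had a peak most often. A shared summit was found in 46.4% of these 634 pairs (Wilson interval 42.5 to 50.3%), and their peaks had a median signal of 412, against 323 for starts under 200 bp apart, 338 from 500 to under 1000 bp and 229 at 1000 bp and more. The 5 peaks of overlapping pairs had a median of 427. The share was 30.2% of 242 pairs under 200 bp, 34.7% of 789 pairs from 500 to under 1000 bp and 13.0% of 717 pairs at 1000 bp and more. The stretch in both windows grows up to a distance of 800 bp and shrinks beyond it, so peaks were also counted per shared base. That density was 642 peaks per shared Mb from 200 to under 500 bp, 572 under 200 bp, 352 from 500 to under 1000 bp and 250 at 1000 bp and more. In close pairs the shared stretch includes up to 200 bp downstream of each start. At 1000 bp and more it holds only bases between the starts, so the classes differ in the kind of base counted. Each stretch between starts was also cut into 3 equal lengths. Where the starts were 200 to under 500 bp apart, 50.2% of the summits between them lay in the middle length. That length holds 33.1% of the shared bases that lie between the starts, and the shares of bases below are counted likewise. From 500 to under 1000 bp it was 37.1% of summits for 33.2% of bases, and under 200 bp 31.1% for 32.8%. At 1000 bp and more it was 41.3% of summits for 61.3% of bases, so in wide pairs summits stood outside the middle more often than the bases alone would place them.

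Some peaks were near the upstream limit of the rule. Within 100 bp inside it lay 47 peaks (median signal 236), and 41 peaks lay within 100 bp outside it (median 274). The number of members depended on the limit, with 523 at 500 bp upstream, 780 at 1000 bp and 1153 at 2000 bp. The member nearest the limit, beside hrg-9, had a signal of 120, and the next, that of T10E9.8 and T10E9.2 at 997 bp from the farther start, had 559. The peaks of kars-1 and kat-1, at 1001 bp with a signal of 173, and of idha-1 and lmd-1, at 1008 bp with 197, were just outside.

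Ribosomal protein genes stood beside 32% of the 25 strongest peaks and beside 5.51% of all members. The 25 strongest ran from 1855 to 5790, all had their summit between the starts, 19 of them over 100 bp from both, and 8 had a cytosolic ribosomal protein gene in the pair. The strongest stood between K01G5.10 and tasp-1, the gene of a taspase (chrIII:10758965-10759636), with 3158 in replicate 1 and 2648 in replicate 2; its summit was 55 bp upstream of tasp-1 and 730 bp upstream of K01G5.10. The peak of nhl-2, which encodes a cofactor of the microRNA pathway, and tag-340 followed with 2410 and 2055 in the replicates. Its starts are 1423 bp apart and the summit was 836 and 587 bp from them. The 25 ranked no lower than 133 in replicate 1 and 166 in replicate 2, and all 25 had the higher value in replicate 1.

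The 8 strong pairs with a ribosomal protein gene are given next, and other pairs ranked between them. The peak of rpl-20 and Y17G9B.5 (chrIV:4749804-4750301) had 2453 and 1888 in replicates 1 and 2, with the summit 287 bp from rpl-20 and 175 bp from its partner. The peak of rpl-15 and K11H12.8 (chrIV:654644-655164) had 2288 and 2049, at 346 and 468 bp. The peak of rpl-12 and lin-54, which encodes the DNA-binding subunit of the DREAM repressor, had 1657 and 1395. Its summit was 30 bp from rpl-12, the smallest distance to a ribosomal protein start among these 8 pairs. The others were rps-12 with ska-3, a spindle and kinetochore gene (1463 and 1246), rps-1 with ifet-1, a translational repressor (1305 and 1193), and rps-19 with hsr-9, a homologue of 53BP1 (1256 and 1186). The last were rps-15 with F36A2.9 (1206 and 941) and rps-20 with ekl-4 (1016 and 894).

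Other strong pairs held genes of translation, protein folding and the nucleus. drr-2, the homologue of translation factor eIF4H, shared a summit with set-16, an MLL-type histone methyltransferase, with 1875 and 1562 in the replicates and the summit 164 and 182 bp from the starts. iff-2, an eIF5A gene, and F54C9.14 had 1753 and 1597, with the summit 72 bp from iff-2. The mitochondrial chaperonin gene hsp-60 shared a summit with Y22D7AL.10 (1617 and 1247). The subunit genes of the cytosolic chaperonin were present with cct-1 beside mig-5, a Dishevelled gene (1262 and 938), and with cct-8 beside Y55F3AR.2 (1078 and 787). The receptor gene nhr-68 shared a summit with H12C20.7 (1702 and 1566), 34 bp from H12C20.7 and 416 bp from nhr-68.

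The remaining strong pairs were of mixed kinds. mif-4 and ipla-6 had 1540 and 1075, with the widest distance of the 25, 1659 bp. larp-1, a La-related protein gene, and wip-1, the gene of a WASP-interacting protein, had 1292 and 1066. gpap-1 and scpr-1 had 1305 and 1021. The closest starts of the 25 were those of cux-7 and C07H6.2, 164 bp apart, with 1175 and 831; lig-4, the gene of DNA ligase IV, also had this summit in its window. tim-1, the homologue of Timeless, and Y75B8A.23 had 1056 and 936, and icd-1, the beta subunit of the nascent polypeptide-associated complex, and vps-32.1, an ESCRT-III gene, had 1077 and 897. let-70, a ubiquitin-conjugating enzyme gene, and klc-1, a kinesin light chain gene, had 995 and 907. gmps-1, a GMP synthase gene, and cap-2, an actin-capping gene, had 1087 and 803, and ndk-1, a nucleoside diphosphate kinase gene, and F25H2.6 had 1013 and 845. In each of these pairs replicate 1 gave the higher value.

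A few members lay outside the usual layout. In malt-1 and ceh-38 (841 and 741 in the replicates) the summit was 24 bp downstream of the ceh-38 start. In rab-18 and kbp-4 (815 and 686) it was 14 bp downstream of the rab-18 start, and in F25H9.6 and F25H9.7 (747 and 480) 9 bp downstream of F25H9.7. These are the 3 strongest peaks outside the starts, and all 3 summits lay in an untranslated exon. Of the pairs that overlap at their starts, rpb-7 and Y54E10BR.2 had 347 and 230, and clik-1 and T25F10.1 had 202 and 229. The strongest pair with starts under 200 bp apart after cux-7 was ctf-4 and eef-1G, a translation elongation factor gene, with 1033 and 808 and the summit 36 bp from eef-1G. The lowest members were ent-1 and ZK809.5 (51.4 and 33.1), nse-1 and usp-5 (48.5 and 32.7) and ZK353.10 and ZK353.3 (33.8 and 74.2); replicate 1 was higher in the first 2 and replicate 2 in the last. The widest interval, chosen after its value was seen, stood at icl-1, the gene of the glyoxylate cycle enzyme, and spanned 4544 bp with 599 and 501.

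Some pairs carried more than 1 summit. 38 pairs had 2 and the pair of ZK632.4 and gtap-2 had 3, with signals of 322, 143 and 112. In 26 of these 39 pairs the outer summits were each nearer a different start. The median distance between outer summits was 215 bp (at most 910 bp), in pairs with starts a median of 790 bp apart, and in 10 pairs the summits lay in 1 deposited interval. The pair of tim-1 had a second summit of 95.05 and that of T27E9.2 and ant-1.1 had summits of 1686 and 163. In F29B9.11 and jmjd-1.2 the summits were 1627 and 547. Summits of 1 interval are not independent of each other.

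Members were kept by IDR, which selects peaks whose ranks agree between these same replicates, so the likeness of the replicates that follows was fixed in part by that selection. Of the 780 summits, 776 lay in a peak of replicate 1, 778 in one of replicate 2 and 774 in both. Among the strongest 8540 positions of each replicate the counts were 756 and 749. The signal was higher in replicate 1 for 591 of the 774, with a median log2 ratio of replicate 2 to replicate 1 of -0.22 and an SD of 0.35 over members. The scale of each list is unknown, so this difference cannot be told apart from an offset of scale. As a description over the 774 peaks, which share the same 2 libraries, Spearman's rho was 0.970. The summit moved by a median of 4 bp in both replicates, with an upper quartile of 12 and 13 bp and a largest shift of 228 and 214 bp. Each member took the strongest replicate peak that covers its summit, so a weaker summit can carry the values of a neighbour. The weaker summit of F29B9.11 and jmjd-1.2 did so, with 860 and 775. In all, 27 members shared their interval with another IDR summit. Among members over the median signal, the lower values in replicate 2 included C56A3.6 and cav-2 (584 and 345) and mlcd-1 and idhg-1 (244 and 146). The higher values in replicate 2 were at aha-1 and C25A1.15 (158 and 212), aps-3 and rpl-17 (156 and 204) and madf-11 and xnd-1 (165 and 213). The widest gap of all, picked after its values were seen, was at the weaker of 2 summits that gcy-33 and cpr-9 have in 1 interval, with 146 in replicate 1 and 10.6 in replicate 2. The stronger summit of that pair had 308.9 and 304.7.

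**Figure D4:**
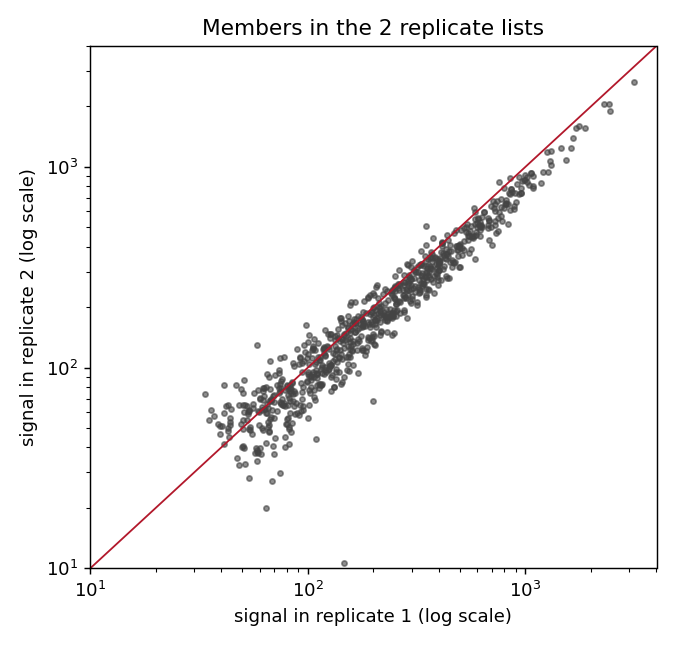
Signal of the 774 peaks found in both replicate lists, with replicate 1 on the x axis and replicate 2 on the y axis (both log scales); the line marks equal values. Most points, 591, lie under the line, and the 1 at the bottom edge is the weaker of the 2 summits of gcy-33 and cpr-9, whose stronger summit has 308.9 and 304.7.

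Cytosolic ribosomal protein genes had a shared peak in nearly all of their pairs. Groups were read from gene names, and each share is set beside the 30.8% of all head-to-head pairs. Of the cytosolic ribosomal protein genes, 46 pairs were head-to-head and 42 (91.3%, Wilson interval 79.7 to 96.6%) had a peak, also 42 in each replicate list, with a median signal of 778. The pairs without one were rps-6 with usp-3, rps-5 with clc-9, rla-2 with popl-7 and rpl-11.1 with T22F3.2. All 3 pairs of 2 ribosomal protein genes had a peak: rps-10 and rpl-24.1 (482 and 402 in the replicates), rps-14 and rpl-36 (479 and 402), and rpl-39 and rps-30 (349 and 406). Mitochondrial ribosomal proteins had a peak in 17 of 27 pairs (63.0%), led by mrps-7 and Y57G11C.3 (751 and 555). Translation factors had one in 15 of 20 pairs and aminoacyl-tRNA synthetases in 11 of 15, led by ears-2 and uncp-18 (582 and 450).

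The shares were above 60% also for groups of energy metabolism, protein turnover and RNA processing, and lower for vesicle traffic and the vacuolar ATPase. The respiratory chain and ATP synthase had a peak in 29 of 37 pairs (78.4%), led by mcrs-1 and atp-1, the ATP synthase alpha subunit (937 and 728), with the summit 6 bp from atp-1. Proteasome subunits had one in 18 of 22 pairs (81.8%), led by hsp-110 and rpn-3 (919 and 825), and chaperones in 22 of 28 (78.6%). Of 3 pairs of 2 chaperone genes, 1 had a peak. It was that of the small heat shock genes hsp-16.2 and hsp-16.41 (188 and 226), with the summit 55 bp from hsp-16.41. Spliceosome proteins had one in 21 of 27 pairs (77.8%), led by prp-19 and K10D2.5 (829 and 651). The SR protein genes rsp-2 and rsp-1 shared a peak of 497 and 407, and snr-3 and rsp-5 had 285 and 176 at the stronger of their 2 summits. RNA polymerase, Mediator and Integrator genes had one in 13 of 18 pairs, led by apb-1 and mdt-19 (769 and 629), and nuclear pore and transport genes in 17 of 25, led by npp-3 and top-2 (771 and 571). Vesicle traffic genes had one in 21 of 43 pairs (48.8%), mitochondrial import genes in 2 of 3 and the vacuolar ATPase in 3 of 7 (42.9%), led by C17H12.2 and vha-8 (577 and 626).

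The shares were below 30.8% for nuclear hormone receptors, cuticle collagens, F-box proteins and C-type lectins, though the intervals of receptors and collagens hold that value. Nuclear hormone receptor genes had a peak in 8 of 35 pairs (22.9%, 12.1 to 39.0%). Of 8 pairs of 2 receptor genes, 1 had a peak, nhr-94 and nhr-152 (106 and 76.9). Cuticle collagens had a peak in 6 of 36 pairs (16.7%), with the strongest at col-38 beside rpl-5 (520 and 497). F-box proteins had one in 5 of 79 pairs (6.33%), led by fbxb-85 and hex-3 (887 and 635), and C-type lectins in 3 of 65 (4.62%, 1.58 to 12.7%), none over a signal of 346. Pairs of 2 F-box genes numbered 16 and 1 of them had a peak, fbxa-76 and fbxa-77 (62.1 and 48.6). Of the 17 groups, 11 had an interval wholly above 30.8%, F-box proteins and lectins had one wholly below it, and 4 had one that holds it (mitochondrial import, the vacuolar ATPase, nuclear hormone receptors and collagens). The intervals cover the number of pairs and not differences between animals.

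**Figure D5:**
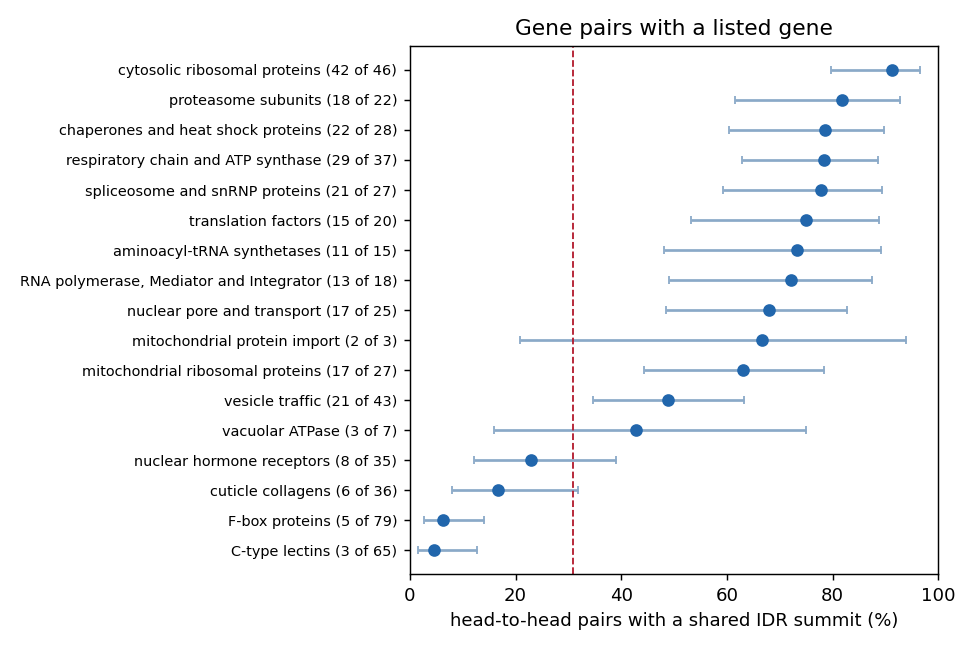
Percent of head-to-head pairs with a shared IDR summit for 17 gene groups, with the number of pairs beside each name. Points are shares, bars are 95% Wilson intervals and the dashed line is the 30.8% of all 2382 pairs; cytosolic ribosomal proteins are highest (42 of 46) and C-type lectins lowest (3 of 65).

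In pairs with 1 ribosomal protein gene the summit was more often nearer the partner. Of 40 such peaks, 28 were nearer the partner and 12 nearer the ribosomal protein gene, with medians of 182.5 bp upstream of the partner and 318.5 bp upstream of the ribosomal protein start. The summit was nearer the partner also for nuclear pore and transport genes (15 of 19), and nearer the listed gene for proteasome subunits (12 of 18) and for RNA polymerase, Mediator and Integrator genes (11 of 16). All starts were read for TTTCAG, the consensus of a worm splice acceptor, directly before them, a choice made after sequences of members were seen. They stood before 40 of 79 autosomal ribosomal protein starts (50.6%, Wilson interval 39.8 to 61.4%), 337 of the 1480 starts nearest to members (22.8%, 20.7 to 24.98%) and 2117 of all 17242 autosomal starts (12.3%, 11.8 to 12.8%). In 275 members 1 of both starts had them, and the summit was nearer the other start in 174 of these (63.3%, 57.4 to 68.8%); the start with the acceptor letters was a median of 268 bp away. Whether such starts are sites of trans-splicing was not tested.

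The share of pairs with a peak differed among chromosomes. It was 45.2% of 385 pairs on chromosome III (Wilson interval 40.3 to 50.2%) and 36.2% of 428 on chromosome I. It was 29.1% of 440 on chromosome IV, 26.8% of 466 on chromosome II and 22.9% of 663 on chromosome V (19.9 to 26.3%). The median signal of members ran the other way for chromosome V, where it was highest with 385, and lay between 324 and 369 on the others. A non-coding gene lay within 100 bp of the summit in 94 members, of which 84 had one of the broad ncRNA class, 4 a tRNA, 4 an snRNA, 3 an snoRNA, 2 a miRNA and 5 a piRNA gene. The median signal was 403 with such a gene and 333 without. The same count was not set beside other peaks or all promoters, so 94 members cannot be called many or few.

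Word content of the 100 bp windows differed between the members and peaks in promoters on 1 strand. The GA repeat GAGAGA was in 18.3% of member windows and 24.8% of windows on 1 strand, with 18.7% ± 1.17 and 24.2% ± 0.354 (SD, n = 2) in the replicate lists, and in 8.10% of windows at all 17242 autosomal promoters. The E-box CACGTG was in 22 members (2.82%) against 5.78% on 1 strand, with 3.11% ± 0.143 and 5.71% ± 0.187 in the replicates, and in 1.75% of all promoters; members with it had a median signal of 475 against 340 without it. GATAAG was in 3.72% of members and 6.16% on 1 strand, and members with it had a lower median signal, 156 against 350 without it. TATAAA was in 4.74% and 6.30% of the windows, TGACGT in 5.64% and 6.20%, and a block of 8 T in 5.64% and 4.76%. CCGCCC was in 6.79% and 5.97% of the windows, CCAAT in 15.9% and 16.7% and TTGAAA in 18.6% and 16.0%, and TTTCAG in 8.33% and 7.93%. Over all promoters TTGAAA was in 30.0%, TTTCAG in 15.5%, TATAAA in 13.4% and the block of 8 T in 13.6%, each above both kinds of peak window. There CCAAT was in 17.4%, GATAAG in 5.42%, TGACGT in 3.63% and CCGCCC in 2.44%. Of the half-sites bound by nuclear receptors, AGGTCA was in 2.82% of members and 3.26% on 1 strand, beside 2.85% of all promoters; members with it had a median signal of 241 against 347 without it. AAGTCA was in 2.05% and 4.29%, with 2.24% ± 0.551 and 4.02% ± 0.124 in the replicates, and in 4.29% of all promoters. A match is not a site, and its absence from these windows says nothing of the receptor.

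The 6-base words that differed most were found by search among those in at least 10% of either kind of window. Higher in members were ACCGTA (12.7% against 3.87% on 1 strand), AGACCC (10% against 3.40%), GCGCAC (16.0% against 6.86%), GAGACC (13.6% against 5.83%) and ATGCGC (12.1% against 5.78%). At least 1 of these 5 was in 42.9% of members, 20.1% of windows on 1 strand, 12.4% of peaks outside promoters and 10.4% of all promoters. In the replicate lists ACCGTA was in 12.004% ± 0.215 of members and 3.86% ± 0.102 of windows on 1 strand (SD, n = 2). These lists hold most of the summits in which the words were found, so their values are not an independent check. The share with at least 1 of the 5 words rests on the same choice. Lower in members were AAGAAG (3.97% against 11.1%), AGAAGA (6.79% against 16.0%) and AGAGAT (6.28% against 12.8%). Some of these words overlap one another when shifted by 1 base, so their counts are not separate. Members with ATGCGC had a median signal of 485 against 326 without it, and those with ACCGTA 424 against 333.

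Longer words of 10 bases were repeated among the members. GAGACGCAGA was in 39 members (5.00%) but in 7.74% of windows on 1 strand, and the autosomes hold 3132 copies. ACGACACTCC was in 28 members (3.59%) against 0.886% on 1 strand, GAGGAGTACA in 27 (3.46% against 1.03%) and GCGCCTTTAA in 26 (3.33% against 0.746%). CGGTGTTTGC was in 24 (3.08% against 1.73%) and AAGTGCGCTC in 23 (2.95% against 1.26%). Members with GAGGAGTACA had a median signal of 599, and those without it 333, whereas those with CGGTGTTTGC had 263 against 347 without. Over all 26 words counted, the median signal was higher with the word than without it for 14. In the windows shown early on, GAGACGCAGA is in the same window as an E-box at R107.5 and cls-2, a microtubule-binding CLASP gene (753 and 843 in the replicates). GCGCCTTTAA runs into ATGCGC at rbc-2 and ndua-8, a gene of respiratory complex I (679 and 546). Genome copies of these words are many, so windows that share one may share a repeated sequence.

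Base composition and repeat content also differed among the kinds of window, and whether they bear on the word shares was not tested. The mean GC content was 44.7% ± 7.91 (SD over windows) in members, 43.3% ± 7.96 on 1 strand, 42.7% ± 8.20 in no window and 33.8% ± 8.30 at all promoters. At least 50% of the window was soft-masked as repeat or low-complexity sequence in 15.1% of members (Wilson interval 12.8 to 17.8%), 9.19% of peaks on 1 strand and 7.86% of peaks in no window. At the midpoints of the 1648 head-to-head pairs without a peak it was 35.3%, so the peaks stood in less masked sequence than those midpoints. The median signal was 356 in the masked members and 342 in the others.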

How the data were processed

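Chromatin from 2 biological replicates of whole L1 larvae was precipitated with an anti-GFP antibody, per the labels. The authors deposited peak lists on ce11: 1 list per replicate (30000 positions) and a set passing IDR. Per the submitters' file list, the authors made the replicate lists from alignments of precipitate and control, and each peak carries a deposited signal value. Read depth, signal scale, IDR threshold, caller and aligner: not given in the sources used here. Places, distances, groups and words were compared in signal within a list only. Between the replicate lists, the values of each member were set side by side and as a log2 ratio. The scale and depth of each list are unknown, so a difference between lists cannot be told apart from an offset of scale. The number of replicates, 2, limits precision. The ce10 and pooled lists and the control library were not used here.

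Gene starts came from Ensembl 115 (17242 autosomal protein-coding genes) and sequence from the RefSeq WBcel235 copy. Figures were drawn in Matplotlib 3.10.9; counts and intervals came from Python 3.11.15 with pandas 2.3.3, SciPy 1.17.1 and NumPy 2.4.6. The nearest start on each strand made the pair. Promoter windows for words were 100 bp centred 150 bp upstream. Counting was checked on simulated data. Wilson intervals (95%) cover counting only. For per-replicate values the strongest 8540 positions of each list were used.

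Members, gene lists (from name patterns) and words were chosen with earlier results of these data known. The text names pairs of the 25 strongest members, the strongest 2 per distance class, 3 outside the starts, pairs leading a list or with both genes in it, the 3 most divergent between replicates in each direction, the 3 lowest and the 3 with most summits. Some pairs this rule takes are not reported here. A name pattern that had placed tim-1 among the import genes was removed after it was seen.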

Additional observations from a re-analysis of the deposited data

How the results depend on the processing

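Across 8 results and 9 alternatives, 41 of 72 values moved by more than the SD between the replicate lists and 31 did not. With 500 bp upstream the share of autosomal peaks was 7.86%, the median signal 385, the signal ratio to promoters on 1 strand 1.63, the distance between starts 375 bp, the nearest start at 125 bp, 52.4% of summits nearer the plus-strand start and 30.5% of pairs with a peak. With 2000 bp these were 17.3%, 301, 1.45, 770 bp, 165 bp and 49.3% (the pairs moved less). With 0 bp downstream the share was 10.7%, the signal 363, the distances 549.5 and 151 bp, the pairs 28.5% and, by construction, 100% of summits lay between the starts. In the 50% of peaks with higher signal they were 16.9%, 489, 1.28, 93.6% between, 495.5 and 145.5 bp, 51.4% nearer plus and 23.4% of pairs. With all transcript starts the share was 12.4%, the ratio 1.61 and the distances 533.5 and 142 bp; with head-to-head neighbours only the nearest start was at 142 bp. Where no construction shows it, the cause was not tested. Leaving out a replicate, the share ran from 11.9 to 12.1%, the signal from 165 to 178 (its own scale), the ratio from 1.51 to 1.57, the distances from 521 to 525 bp and from 139 to 141 bp, summits between from 90.7 to 92%, nearer plus from 50.4 to 51.4% and pairs from 31.5 to 31.9%. No paired analysis was possible because there is 1 group. Depth is unknown, so its limit cannot be given.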

Other observations

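On the X chromosome, which the rule leaves out, 44 of the 1889 peaks had their summit in windows of genes on both strands.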
